A study of Mus musculus with 6 samples.

Results

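The SUMO proteases are the enzymes that cut SUMO, a small ubiquitin-like protein, from its precursors and from the proteins that carry it. The 10 genes described here are the Senp family (*Senp1*, *Senp2*, *Senp3*, *Senp5*, *Senp6*, *Senp7* and *Senp8*), the deSUMOylating isopeptidases *Desi1* and *Desi2*, and *Uspl1*. They were taken by gene symbol and are 10 of the 55573 genes listed for inguinal white adipose tissue (iWAT), a subcutaneous fat depot. RNA-seq was made from the iWAT of 3 mutant and 3 Wt mice, 1 library per mouse. The mutant mice carried the THRA K283Q/K288R change on both alleles in every tissue, as a global knock-in on the C57BL/6NTac background made with FLP/FRT cassette exchange. THRA is the thyroid hormone receptor alpha, and the change removes a site at which the receptor is sumoylated. Wt mice were C57BL/6NTac bred in the same facility. All 6 mice were untreated males of 3 months on regular chow.

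Sumoylation is a cycle. A SUMO precursor is trimmed to its mature end, activated by the pair Sae1 and Uba2 and attached to a lysine of a target protein, often with the help of an E3 ligase such as a Pias protein. The proteases act at both ends of the cycle: they mature the precursor and they take SUMO off again, so that a target is modified only for a time. In fat cells, desumoylation is known to act on regulators of adipocyte differentiation, among them Pparg and Setdb1. The genotype comparison asks whether the mRNAs of this machinery differed when one of its targets could no longer be modified at that site.

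All values are normalized CPM, that is reads on a gene relative to all reads of its library, scaled once more by a factor for each mouse by the authors. The mice had 19607423 to 24228381 reads on genes, and 3 reads on a gene were worth 0.126 to 0.157. Every SUMO protease lay far above that level, with 128 to 2133 reads per mouse. Markers of adipocytes were abundant in all 6 mice, and *Adipoq* was at 1332 to 2219. The libraries differed in other cell types. Markers of B and T cells (7 genes) summed to 304, 635 and 719 in Wt mice 1, 2 and 3 and to 4.24, 393 and 597 in mutant mice 1, 2 and 3, so that they were nearly absent from mutant mouse 1. Mesothelial markers summed to 5.06 to 42.6 in Wt and to 35.8 to 75.0 in mutant mice. Of the 8, 5 were higher in mutant mice at an adjusted p under 0.05 in limma. The highest Wt sum was that of Wt mouse 1, where *Krt19* was at 28.5 and *Krt8* at 10.1. These 2 had log2 fold changes below 0 (-0.17 and -0.97, limma adjusted p = 0.913 and 0.558), and 6 were above 0. Epithelial markers (5 genes) summed to 65.7, 5.25 and 9.76 in Wt mice 1, 2 and 3 and to 6.45, 22.8 and 3.37 in mutant mice. Skeletal muscle markers summed to 10483 to 22434 in Wt and to 17116 to 26669 in mutant mice. Of these, 1 of 8 (*Myh1*) was higher in mutant mice at an adjusted p under 0.05 in limma. Without overlap between the genotypes, 4 of the 8 were higher in mutant mice and 0 lower. Adipose progenitor markers (3 genes) summed to 453 to 500 in Wt and to 528 to 722 in mutant mice. All 3 were higher in mutant mice without overlap, as 14.9% of all genes were, and 0 passed an adjusted p of 0.05 in limma. Of the mesothelial markers, *Upk3b* and *Upk1b* were at 0 in Wt mouse 2 and the gene *Wt1* was at 0 in Wt mouse 1. In whole tissue, fewer cells of a type and less RNA per cell cannot be told apart. *Thra*, the changed gene, was at 147, 128 and 117 in Wt and at 170, 140 and 137 in mutant mice (log2 fold change 0.19, limma adjusted p = 0.404). With the values corrected for the GC content of genes its log2 fold change was 0.45 (limma adjusted p = 0.0822), and with a replicate block added to that correction the adjusted p was 0.00937. A read count does not show which codons a gene holds, so this level does not check the genotype.

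No SUMO protease passed the threshold between the genotypes. Of the 10 genes, 0 had an adjusted p under 0.05 in limma, where 8.11% of the 16868 genes tested did (5.5% higher and 2.61% lower in mutant mice). At an unadjusted p under 0.05 there was 1 of 10, *Desi1*, which was lower, against 24.2% of all genes (12.2% higher and 12% lower). edgeR's quasi-likelihood test, DESeq2 and limma-voom on the reads also called 0 of 10, with 1, 0 and 1 at an unadjusted p under 0.05. That 1 gene was *Desi2*, higher in mutant mice, with an unadjusted p of 0.0303 in edgeR's quasi-likelihood test and 0.0289 in limma-voom. *Desi1* was at 0.0630 and 0.0618 in the same 2 tests. The log2 fold changes lay between -0.27 for *Senp1* and 0.21 for *Desi2*, with a median of -0.06 where the median of all genes was -0.05. The genotypes did not overlap for 4 of the 10 (*Senp6* and *Desi2* with all mutant mice higher, *Senp3* and *Desi1* with all mutant mice lower), and for 30.6% of all genes tested (14.9% higher and 15.7% lower). Correction for the GC content of genes moved the log2 fold changes of *Senp3* to -0.11, *Senp6* to 0.08 and *Desi2* to 0.13, and that of *Desi1* to -0.23. The part of mesothelial, muscle and progenitor content in *Senp3*, *Senp6*, *Desi1* and *Desi2* was not tested. The smallest p that an exact two-sided permutation test of a single gene can give with this many mice is 0.1.

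**Figure D1:**
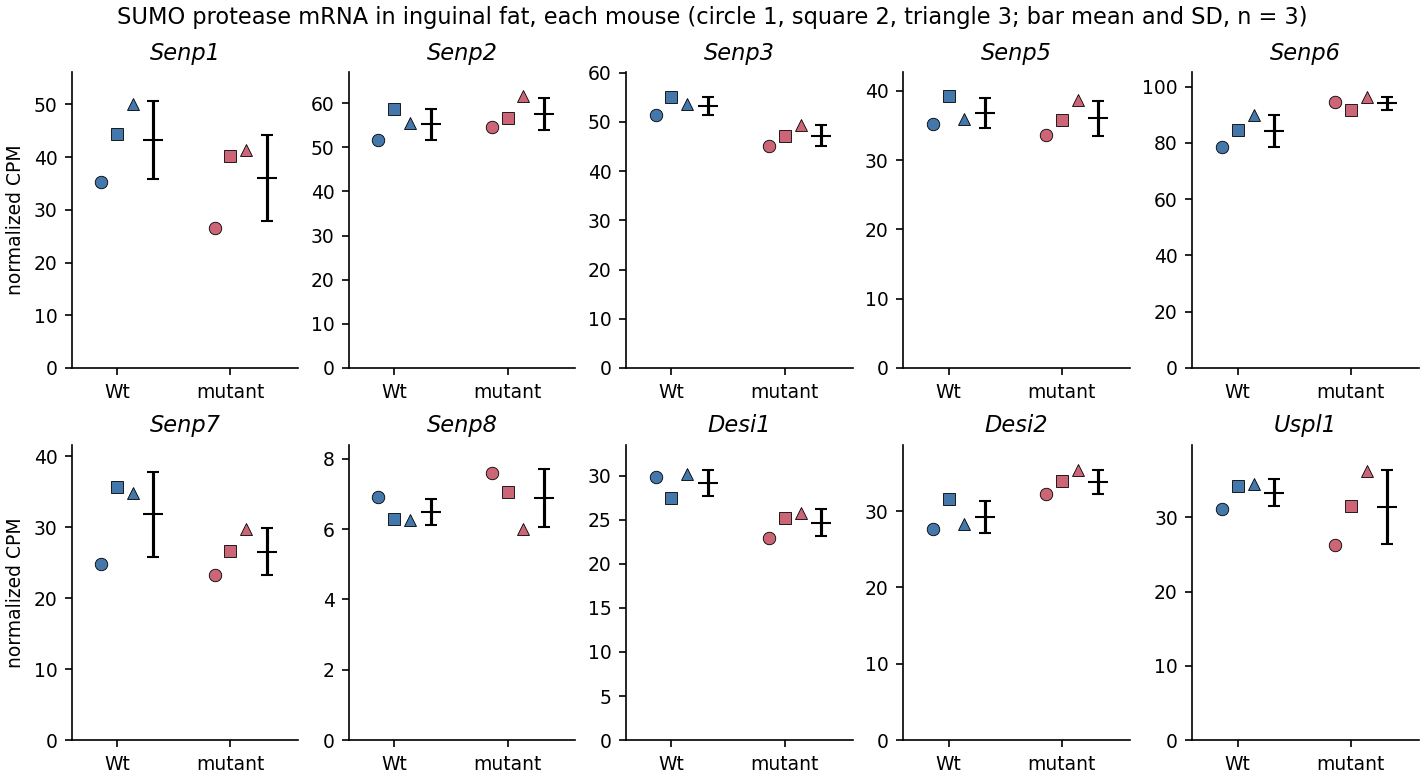
Normalized CPM (vertical axes, each from 0) of the 10 SUMO proteases in each Wt (blue) and mutant (red) mouse, with circles for mouse 1, squares for mouse 2 and triangles for mouse 3, and the mean with its SD (n = 3) as a bar. The genotypes stand apart for *Senp3*, *Senp6*, *Desi1* and *Desi2* and share a range for the other 6, and the circles of *Senp1* lie below the other mice of each genotype.

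Promoter sequences were at hand for 9 of the 10 genes, from RefSeq on GRCm38.p6, as 13 windows, since some genes had several start sites. Each window covered 250 bases before and 50 bases after a start site. Since the study concerned CREB, the factor that binds cAMP response elements, and a nuclear receptor, these windows were searched on both strands for the cAMP response element TGACGTCA, its half-site TGACG (which the full element holds on each strand) and the nuclear receptor half-site AGGTCA. Only *Senp2* held the full element, at -75 from its start site, which 1.79% of 32851 mouse promoters hold. The half-site TGACG lay in 4 of the 13 windows (of *Senp2*, *Senp3*, *Senp8* and *Desi1*) and in 20.8% of all promoters. *Senp3* also had a window without it. AGGTCA lay in 3 of the 13 windows (of *Senp1* and *Senp5*) and in 16.3% of all promoters. These are matches of letters, and no binding was measured here. *Senp2* is shown for its full element and *Desi1* as the gene with the smallest p in limma. The windows of *Senp2* (chr16:22009234-22009533, plus strand) and *Desi1* (chr15:82016171-82016470, minus strand) are given 5′ to 3′ along the gene. The RefSeq window of *Desi1* lies inside its GENCODE span (chr15:81992523-82033862) and not at the 5′ end of that span. The element and the half-sites of either strand are in capitals.
Senp2: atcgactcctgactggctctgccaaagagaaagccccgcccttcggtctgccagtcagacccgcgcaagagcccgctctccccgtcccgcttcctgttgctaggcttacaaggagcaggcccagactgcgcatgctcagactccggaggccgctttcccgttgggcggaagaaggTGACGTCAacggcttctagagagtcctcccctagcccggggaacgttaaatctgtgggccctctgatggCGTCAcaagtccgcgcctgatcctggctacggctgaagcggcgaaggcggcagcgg
Desi1: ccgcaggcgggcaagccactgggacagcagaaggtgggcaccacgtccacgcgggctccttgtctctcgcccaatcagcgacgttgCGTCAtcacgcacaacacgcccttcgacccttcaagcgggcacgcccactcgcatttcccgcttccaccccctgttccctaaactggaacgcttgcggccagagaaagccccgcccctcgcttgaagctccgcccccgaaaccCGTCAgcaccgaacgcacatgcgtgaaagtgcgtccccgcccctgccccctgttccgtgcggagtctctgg

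Senp1 and Senp2 are the nuclear proteases that both mature SUMO precursors and remove SUMO from targets. *Senp1* (ENSMUSG00000033075, chr15:98038744-98093744, minus strand, GRCm38) was at 35.3, 44.3 and 50.1 in Wt mice and at 26.6, 40.2 and 41.4 in mutant mice. The genotypes overlapped, and the log2 fold change of -0.27 (SE 0.21, 95% interval -0.77 to 0.23) had an adjusted p of 0.449 in limma. Its 2 lowest values were those of mouse 1 of each genotype, and the log2 fold change was -0.07 without mutant mouse 1, -0.16 without Wt mouse 3 and -0.41 without Wt mouse 1. *Senp2* (ENSMUSG00000022855, chr16:22009484-22049269, plus strand) stood at 51.6, 58.6 and 55.4 in Wt and at 54.6, 56.5 and 61.5 in mutant mice. Its log2 fold change was 0.06 (SE 0.09, interval -0.15 to 0.27, limma adjusted p = 0.693).

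Senp3 and Senp5 are the nucleolar proteases, which act mainly on SUMO2 and SUMO3, and Senp3 is known for its part in the maturation of ribosomes. *Senp3* (ENSMUSG00000005204, chr11:69673115-69682084, minus strand) was at 51.3, 55.0 and 53.6 in Wt and at 45.1, 47.1 and 49.4 in mutant mice. Every mutant mouse lay below every Wt mouse, by 0.886-fold on the means. The log2 fold change of -0.17 (SE 0.07, interval -0.35 to 0.01) did not pass (limma adjusted p = 0.221; exact permutation p = 0.1). *Senp5* (ENSMUSG00000022772, chr16:31959672-32003287, minus strand) gave 35.1, 39.2 and 35.9 in Wt and 33.6, 35.8 and 38.7 in mutant mice, with overlap and a log2 fold change of -0.03 (SE 0.09, interval -0.24 to 0.19, limma adjusted p = 0.860). The sign of that value turned under some other settings, as given in the closing section.

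Senp6 and Senp7 shorten chains of SUMO2 and SUMO3 and mature precursors poorly. *Senp6* (ENSMUSG00000034252, chr9:80066903-80144953, plus strand) was at 78.5, 84.6 and 89.7 in Wt and at 94.4, 91.5 and 96.2 in mutant mice. Each mutant mouse was above each Wt mouse, and the log2 fold change of 0.16 (SE 0.08, interval -0.03 to 0.35) had an adjusted p of 0.273 in limma (exact permutation p = 0.1). *Senp7* (ENSMUSG00000052917, chr16:56048338-56190012, plus strand) was at 24.8, 35.7 and 34.9 in Wt and at 23.3, 26.6 and 29.8 in mutant mice. Wt mouse 1 lay within the range of the mutants, and the difference on the log2 scale was -0.24 (SE 0.17, interval -0.65 to 0.16, limma adjusted p = 0.411), or -0.41 (adjusted p = 0.132) without that mouse, -0.15 (adjusted p = 0.696) without Wt mouse 2 and -0.15 (adjusted p = 0.712) without mutant mouse 1.

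Senp8 belongs to the family by sequence but cuts NEDD8, the ubiquitin-like protein that activates cullin ligases, and not SUMO. *Senp8* (ENSMUSG00000051705, chr9:59734259-59750710, minus strand) was at 6.91, 6.27 and 6.27 in Wt and at 7.60, 7.05 and 5.99 in mutant mice, on 128 to 165 reads per mouse. Its log2 fold change was 0.07 (SE 0.14, interval -0.25 to 0.40, limma adjusted p = 0.756).

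Desi1, Desi2 and Uspl1 are cysteine proteases of other folds: Desi1 and Desi2 form a small family of their own, and Uspl1 is related to the ubiquitin-specific proteases and sits in Cajal bodies. *Desi1* (ENSMUSG00000022472, chr15:81992523-82033862, minus strand) was at 29.8, 27.5 and 30.2 in Wt and at 22.9, 25.2 and 25.8 in mutant mice. All mutant mice were below all Wt mice, at 0.844-fold of the Wt mean. The log2 fold change of -0.24 (SE 0.09, interval -0.45 to -0.03) failed the correction (limma adjusted p = 0.166; exact permutation p = 0.1). *Desi2* (ENSMUSG00000026502, chr1:178187417-178257301, plus strand) lay the other way, at 27.7, 31.6 and 28.3 in Wt and at 32.3, 33.9 and 35.4 in mutant mice. The genotypes were apart, at 1.16-fold of the Wt mean, with a log2 fold change of 0.21 (SE 0.09, interval -0.0011 to 0.43, limma adjusted p = 0.209, exact permutation p = 0.1). *Uspl1* (ENSMUSG00000041264, chr5:149184350-149215434, plus strand) gave 31.2, 34.2 and 34.4 in Wt and 26.3, 31.5 and 36.3 in mutant mice, where both the lowest and the highest value of the 6 were those of mutant mice. Its log2 fold change was -0.09 (SE 0.13, interval -0.41 to 0.22, limma adjusted p = 0.673), and it was 0.02 without mutant mouse 1 and -0.20 without mutant mouse 3.

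**Figure D2:**
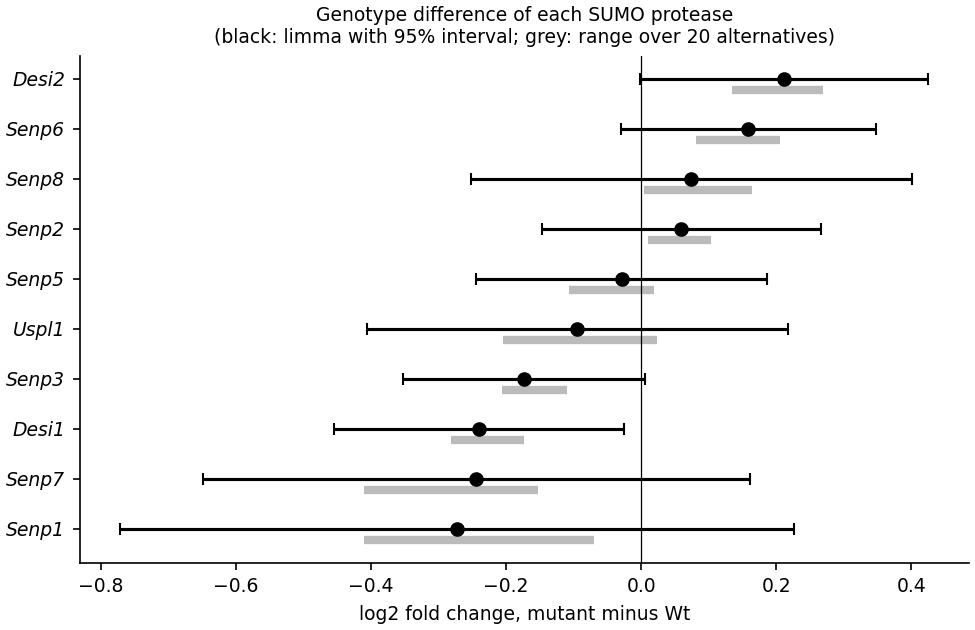
Log2 fold change of mutant minus Wt (horizontal axis) for each SUMO protease, with the limma estimate and its 95% interval in black and the range over 20 alternatives in grey. *Desi1* is the gene whose interval lies on one side of 0, and the grey ranges of *Senp5* and *Uspl1* cross it.

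Related proteases can also be set against each other within a mouse. The log2 ratio of *Desi1* to *Desi2*, per exon length, was 1.44, 1.13 and 1.43 in Wt and 0.84, 0.91 and 0.87 in mutant mice, a mean difference of -0.46 with a gap of 0.22 between the groups. For *Senp3* over *Senp5* the mean log2 ratio was 1.54 ± 0.05 (SD, n = 3) in Wt and 1.39 ± 0.04 (SD, n = 3) in mutant mice, without overlap. For *Senp6* over *Senp7* the ratio stood at 2.42 ± 0.21 (Wt) and 2.82 ± 0.17 (mutant; SD, n = 3), again without overlap and with a gap of 0.03. *Senp1* over *Senp2* overlapped (-1.15 ± 0.20 in Wt and -1.48 ± 0.29 in mutant mice, SD, n = 3). These 4 ratios were set up with the values of their genes known, and ratios of other gene pairs were not computed, so they are given as a description and no test was made.

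Per kb of exon, the scale on which genes can be compared, the members spanned 8.21-fold. The order over the mean of the 6 mice, in normalized CPM per kb, ran from *Senp3* (13.8) and *Senp6* (12.7) through *Senp2* (8.17), *Desi1* (7.40), *Senp5* (5.02), *Desi2* (3.44), *Senp1* (3.34), *Uspl1* (3.16) and *Senp7* (2.09) to *Senp8* (1.69). *Senp3* was above *Senp6* in 3 of the 6 mice, all of them Wt. That order depends on the exon lengths used (3632 bases for *Senp3* and 7016 for *Senp6*). Before division by length, *Senp6* (78.5 to 96.2) was above *Senp3* (45.1 to 55.0) in all 6 mice. Neighbours that changed places between mice were also *Senp2* and *Desi1* (4 of 6 in the order given), *Desi2* and *Senp1* (4 of 6), *Senp1* and *Uspl1* (3 of 6) and *Senp7* and *Senp8* (5 of 6). The steps from *Senp6* to *Senp2*, from *Desi1* to *Senp5*, from *Senp5* to *Desi2* and from *Uspl1* to *Senp7* were clear in every mouse. The sum of the 10 genes was 61.8 ± 2.92 per kb in Wt and 59.9 ± 3.28 per kb in mutant mice (SD, n = 3), a difference within the spread between mice.

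**Figure D3:**
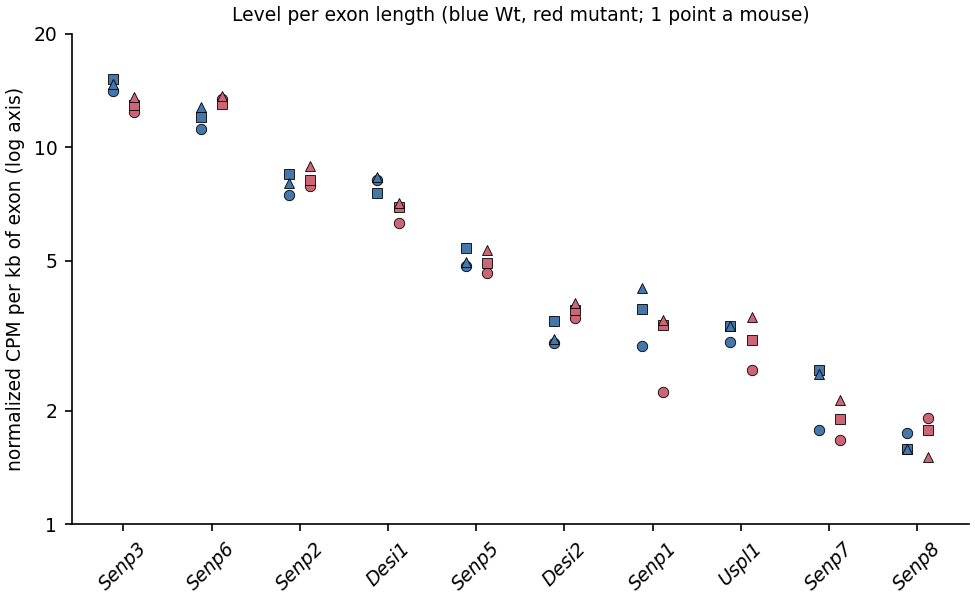
Normalized CPM per kb of exon (vertical log axis) of each SUMO protease in the 6 mice, blue for Wt and red for mutant, ordered by the mean over all mice. *Senp3* and *Senp6* lie together at the top near 13.8 and 12.7, *Senp8* is at the bottom near 1.69, and blue and red lie in opposite order for *Senp3* and *Senp6*.

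Most SUMO proteases varied little between mice of a genotype, beside all genes tested. The SD within genotypes on the log2 scale had a median percentile of 14.3 among all genes tested, from 4.81 for *Senp3* to 62.9 for *Senp7* and 76.7 for *Senp1*. This rank was not matched for expression level and was not particular to the proteases. Of the lists described below, SUMO proteins had a median percentile of 15.2, SUMO conjugating enzymes 16.5 and the NEDD8 pathway 24.7. It was 36.2 for partners of Senp3, 53.3 for SUMO readers and 58.3 for sumoylated regulators of fat cells. *Senp1* varied by 1.42-fold between the highest and the lowest Wt mouse and by 1.56-fold between mutant mice. *Senp7* varied by 1.44-fold and 1.28-fold, and *Uspl1* by 1.10-fold and 1.38-fold. Mouse 1 was the lowest of both genotypes for 7 of the 10 genes (*Senp1*, *Senp2*, *Senp3*, *Senp5*, *Senp7*, *Desi2* and *Uspl1*), as it was for 28.8% of all genes tested. It was also the lowest of each genotype in the B and T cell markers (304 and 4.24) and in the authors' scaling factor (0.985 in Wt and 0.962 in mutant, in a range of 0.962 to 1.109), and the highest of each in *Adipoq* (2219 and 2141). The part of the lymphocyte content in the values of *Senp1*, *Senp7* and *Uspl1* was not tested. With both mice 1 left out, a choice made after the data were seen, 0 of 10 genes passed, and the log2 fold changes were -0.21 for *Senp1* (limma adjusted p = 0.223), -0.32 for *Senp7* (adjusted p = 0.0912) and -0.02 for *Uspl1* (adjusted p = 0.918). *Desi1* stood at -0.17 (adjusted p = 0.320) and *Desi2* at 0.21 (adjusted p = 0.234) in the same 4 mice.

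**Figure D4:**
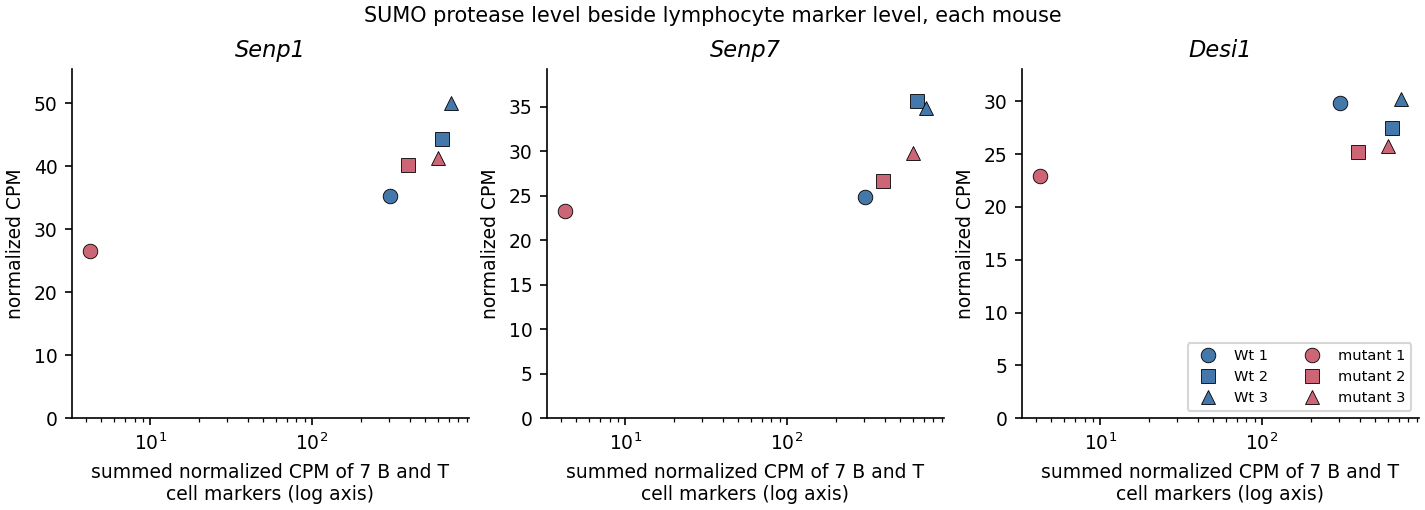
Normalized CPM of *Senp1*, *Senp7* and *Desi1* (vertical axes from 0) against the summed normalized CPM of 7 B and T cell markers (log axis) in each mouse, blue for Wt and red for mutant. Mutant mouse 1, at 4.24, holds the lowest value of all 3 genes, and for *Desi1* the Wt mice lie above the mutant mice. The lowest marker sum of a Wt mouse is 304, so no Wt mouse lies near mutant mouse 1 on that axis.

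The members share little sequence with other genes. Of the 50-base words of their transcripts, 9.09% of those of *Senp3* and at most 2.77% of those of the other members recur in transcripts of other genes, and the pseudogene that shares most with *Senp3*, *Gm6580*, was at 0.105 or less in every mouse. Exons of *Desi1* share 344 bases with *Xrcc6* on the other strand, which was at 33.1, 29.03 and 30.5 in Wt and at 31.1, 27.3 and 30.4 in mutant mice. Exons of *Senp5* share 131 bases with *Ncbp2* (mean 41.9), those of *Uspl1* 42 with *Hmgb1* (28.02), those of *Senp6* 108 with *Gm17477* (0.19), and those of *Senp1* 462 with *Gm26513* (0.73) and 18 with *Pfkm* (536), all on the other strand. Whether strand was used in counting is not given in the sources used here, and where it was not, reads in these stretches cannot be told apart. *Senp2*, *Senp3*, *Senp7*, *Senp8* and *Desi2* share no exon bases with another gene.

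Genes for the attachment of SUMO did not pass the threshold either. Of 19 genes for SUMO proteins and conjugating enzymes, 0 passed an adjusted p of 0.05 in limma (5 at an unadjusted p under 0.05, all lower in mutant mice, as 12% of all genes were), 2 did not overlap upwards and 7 downwards (14.9% and 15.7% of all genes), and the median log2 fold change was -0.16. edgeR's quasi-likelihood test called 0 and DESeq2 called 3. *Sumo3* was at 47.0, 45.8 and 45.7 in Wt and at 48.9, 53.7 and 46.6 in mutant mice (limma adjusted p = 0.453). Values of *Sumo2* were low, at 3.02, 4.23 and 2.52 in Wt and 1.78, 1.88 and 2.71 in mutant mice (adjusted p = 0.240), and 19.2% of its 50-base words recur in 13 other genes, so its level is uncertain.

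The activating enzyme genes did not pass, with log2 fold changes of 0.04 for *Sae1* (limma adjusted p = 0.764) and 0.07 for *Uba2* (adjusted p = 0.517). Ligase genes with an unadjusted p under 0.05, named after their values were seen, included *Pias4* (log2 fold change -0.45, limma adjusted p = 0.0695), *Zmiz2* (-0.77, adjusted p = 0.0916), *Pias3* (-0.25, adjusted p = 0.0934) and *Trim28* (-0.29, adjusted p = 0.122). With the correction for GC content they were at -0.19 for *Pias4*, -0.55 for *Zmiz2*, -0.19 for *Pias3* and -0.03 for *Trim28*, and the adjusted p of each was above 0.05. The genotypes did not overlap for these 4, which their choice by a small p favours. Of all genes, 15.7% were lower in mutant mice without overlap.

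Around *Senp8*, 29 genes of the NEDD8 pathway were tested: NEDD8 and its conjugating enzymes, the cullins that carry it and the COP9 signalosome that removes it. In limma 0 passed, with 5 higher and 1 lower at an unadjusted p under 0.05 (12.2% and 12% of all genes), and edgeR's quasi-likelihood test called 0 and DESeq2 1. The log2 fold change was above 0 in 23 of the 29 (median 0.12, where the median of all genes was -0.05). The share of all genes above 0 is not given here. The genotypes did not overlap in 8 with mutant mice higher and 3 with them lower (14.9% and 15.7% of all genes). *Nedd8* itself was at 57.6, 58.8 and 60.7 in Wt and at 61.8, 63.5 and 58.0 in mutant mice (adjusted p = 0.698). The 6 genes with an unadjusted p under 0.05, again named after their values were seen, were *Cops3* (0.33, adjusted p = 0.0657), *Cops5* (0.37), *Uba3* (0.32), *Cul2* (0.30) and *Rbx1* (0.21), all higher, and *Cops7a* (-0.31), which was lower. *Cops5* encodes the subunit of the signalosome that cuts NEDD8 from cullins, as Senp8 does from other proteins.

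Other genes tied to the proteases were taken from 3 lists: readers of SUMO and the PML body, nucleolar partners of Senp3, and sumoylated regulators of fat cells. Of these 17 genes, 1 passed, where 8.11% of all genes did. The log2 fold change was below 0 in 16 (median -0.27, where the median of all genes was -0.05). The share of all genes below 0 is not given here, so this count and those of the lists below are a description. Of the 17, 7 were lower in mutant mice without overlap, as 15.7% of all genes were. The gene that fell was *Bhlhe41*, a repressor of the circadian clock, from 50.3, 42.7 and 32.4 in Wt to 25.9, 17.8 and 23.0 in mutant mice (log2 fold change -0.89, SE 0.20, limma adjusted p = 0.0468, lower in 3 of 3 mutant mice). Its adjusted p was above 0.05 without Wt mouse 1 (0.101), Wt mouse 2 (0.158), mutant mouse 2 (0.137) or mutant mouse 3 (0.106), and 0.0532 in edgeR's quasi-likelihood test. In the list of readers, 5 of 5 log2 fold changes were below 0 (median -0.38, 0 passed), and among the partners of Senp3 6 of 6 were (median -0.21, 0 passed). Of these, *Rnf111*, *Pml*, *Sp100*, *Npm1*, *Tex10* and *Nol9* were lowest in mouse 1 of each genotype, as 28.8% of all genes tested were. *Rnf4*, *Daxx*, *Pelp1*, *Wdr18* and *Las1l* were not. The lymphocyte markers were also lowest in mouse 1 of each genotype. The part of those cells in the 2 lists was not tested.

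**Figure D5:**
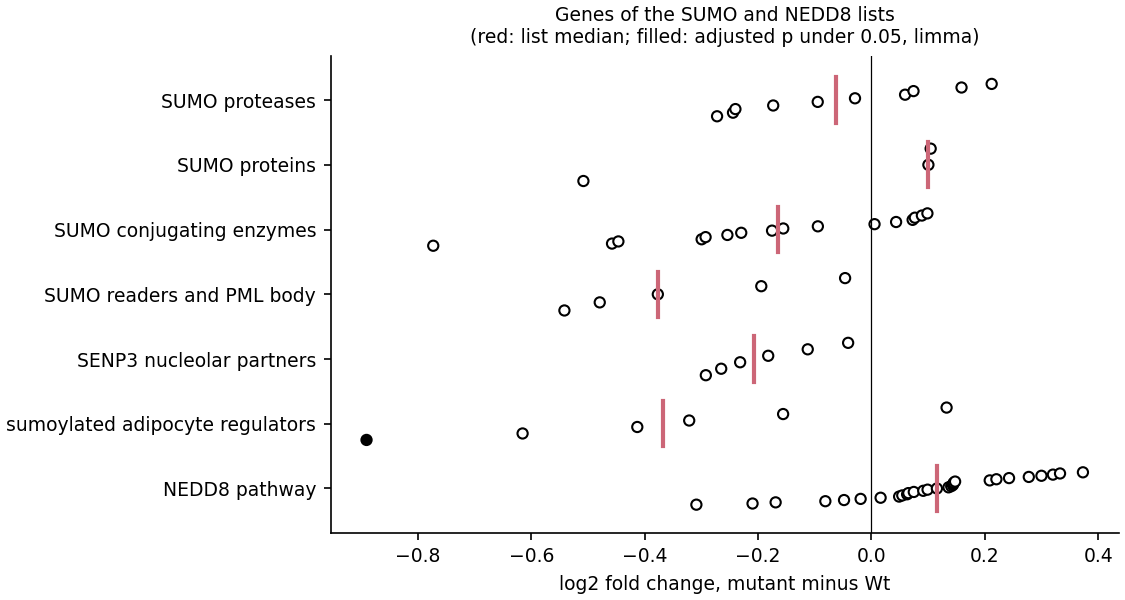
Log2 fold change of mutant minus Wt (horizontal axis) of each gene in the SUMO and NEDD8 lists, 1 circle a gene, with the median of a list as a red line and genes with a limma adjusted p under 0.05 filled. The SUMO proteases lie on both sides of 0, the readers and the Senp3 partners lie below it, and the filled circle is *Bhlhe41* at -0.89.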

How the data were processed

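RNA-seq of iWAT from 3 mutant and 3 Wt mice was analysed by genotype and mouse number as labelled. The values the authors deposited are a normalized signal, CPM scaled by a factor per mouse. Values above 0 and below 2000 reads (100% of them in each mouse) equalled a whole number of reads within 0.02 reads, once divided by what 1 read is worth, and reads were so recovered. The submitters' processing notes name Bowtie2 2.1.0, RSEM 1.2.15, edgeR and mm10 without their roles. Coordinates and lengths are from GENCODE M21 on GRCm38, where 55480 of 55573 identifiers (99.8%) were found.

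Genotypes were compared with limma 3.58.1 (R 4.3.3, trended prior variance) fitted to log2(value + 0.5) for the 16868 genes kept by filterByExpr of edgeR 4.0.16, with Benjamini-Hochberg adjustment and an FDR of 0.05. A fold change is on that scale. Replicates of a genotype differed by far more than sampling noise (a chi-square of 17.5 to 59.1 for each degree of freedom). The labels name separate mice. Intervals are 95%.

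The members and lists were chosen with earlier results of these data known. All 10 members, core SUMO and NEDD8 genes, *Thra* and list genes past the FDR were to be named, and some of these are not reported here. Alternatives were other scalings, tests (edgeR, DESeq2 1.42.0, limma-voom), filters, pseudocounts (0.1, 1), an FDR of 0.1, a replicate block, a correction for GC content in 20 bins and leaving out mice. Proteins are not analysed here.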

Additional observations from a re-analysis of the deposited data

How the results depend on the processing

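Of 200 log2 fold changes of the SUMO proteases under 20 alternatives, 192 kept their direction and their side of the threshold. Other filters and the replicate block cannot change a log2 fold change here, only its p, so the direction of those values was fixed in advance. *Senp5* turned positive with TMM factors (0.0021), edgeR's quasi-likelihood test (0.0024) and limma-voom (0.0020), and leaving out 1 mouse at a time it ranged from -0.081 to 0.019, *Uspl1* from -0.20 to 0.024 and *Sae1* from -0.0048 to 0.084. The GC correction moved *Senp2* to 0.03, *Senp5* to -0.11, *Senp8* to 0.01 and *Uspl1* to -0.17. The cause was not tested.

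The mouse numbers pair different animals, and same-numbered mice deviated from their genotype with correlations of 0.686, 0.0573 and 0.560, not all above 0.1, so the numbers are not taken as a pairing. With a replicate block the calls were 0 among the SUMO proteases, 6 among the SUMO proteins and conjugating enzymes, 4 in the NEDD8 pathway, 7 among the other SUMO-linked genes and 4063 among all genes. With the replicate block and the GC correction they were 2 (*Senp1* at -0.32, adjusted p = 0.0429, and *Senp7* at -0.30, adjusted p = 0.0407), 3, 5, 5 and 3253, where the FDR of 0.05 in limma had given 0, 0, 0, 1 and 1368.

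For the SUMO proteins and conjugating enzymes, DESeq2 called 3, an FDR of 0.1 called 4, both mice 1 left out (added after seeing the data) 2, and single mice left out 0 to 1 (*Pias4* without mutant mouse 3). In the NEDD8 pathway, TMM factors, library size only, DESeq2 and both mice 1 left out called 1 each and an FDR of 0.1 called 2. For the other SUMO-linked genes, TMM factors, edgeR's quasi-likelihood test, limma-voom, no filter, at least 10 reads in every mouse and a pseudocount of 0.1 gave 0, library size only, DESeq2 and an FDR of 0.1 gave 2, both mice 1 left out 3, and single mice left out 0 to 3. Over all genes, DESeq2 called 2118, at least 10 reads in every mouse 598, an FDR of 0.1 2263, both mice 1 left out 2326, and single mice left out 545 (without Wt mouse 2) to 1043. The split of 928 higher and 440 lower was 1019 and 265 with library size only, 1003 and 293 without a filter, and 876 and 140 with the GC correction. No scaling moved the median gene by more than 0.03 on the log2 scale.

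With 3 mice a genotype, the 95% interval of *Senp1* reached down to -0.77 and that of *Senp7* to -0.65 on the log2 scale, so differences of that size are within the intervals. The value of *Senp8* rests on 128 to 165 reads per mouse.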
